A study of Mus musculus with 12 samples.

Results

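The vehicle-treated KP tumours are 6 of the 12 arrays of a study that treated tumour-bearing mice with vehicle or with a focal adhesion kinase inhibitor. They were chosen by label alone, as the 6 arrays marked as vehicle, so no measured value entered the choice. Here they are described on their own, as the baseline transcriptome of this tumour model under vehicle, and no comparison with the inhibitor is made. The mice were female, of C57BL/6 background and 8 weeks old per the labels, carried KP tumours growing in the pancreas itself (orthotopic), and received vehicle by gavage for 14 days. The labels do not spell out KP, do not say whether the tumours grew from 1 line or clone, and number the tumours without saying more about how they were sampled. They count as separate animals only as far as those numbers say, and any p-value measures the spread between these samples. Total RNA came from whole tumour tissue, so each array reads tumour cells, stroma, blood and adjacent tissue together.

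Pancreatic ductal adenocarcinoma is a gland-forming carcinoma in which malignant epithelium often makes up the smaller part of the mass. Around it lies a dense stroma of collagen made by fibroblasts, with contractile myofibroblasts near the tumour glands and other fibroblasts that secrete cytokines. The leukocytes of such tumours are known to be rich in macrophages and granulocytes, with fewer lymphocytes, and normal acinar and islet tissue is lost as the tumour grows. Focal adhesion kinase itself is a cytoplasmic tyrosine kinase activated by integrins when cells attach to matrix.

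Each one-colour array measured Cy5-labelled cRNA made from 0.5 µg of RNA on 59305 spots that were not controls, for 56605 probes. A level here is the log2 of the background-corrected spot intensity minus the array's own 75th percentile, for the brightest probe of each gene, so 0 is the level of a probe at that percentile. Probe brightness also depends on the probe's sequence, so levels of different genes are not amounts that can be set against each other. The deviations of 1 gene between tumours are the quantity that can be compared. Of 37074 genes, 23175 (62.5%) were well above background on all 6 arrays, 7326 on 1 to 5 arrays and 6573 on none. The mean level had a median of -3.36 over all genes and of -0.69 over the 23175. Errors are given as mean ± SD over 6 tumours, and values per tumour are listed in the order from vehicle 1 to vehicle 6.

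The arrays differed in brightness, and this bears on every spread between tumours. The 75th percentile lay between 11.84 on vehicle 6 and 13.90 on vehicle 1, a 4.16-fold difference in signal, and between 66.6% and 75.9% of spots were well above background. Scaling by that percentile lines up genes of levels just above it and leaves brighter and dimmer genes apart. Among 7037 genes of mean level 0 to 3, the median deviation of any tumour from the gene's mean was between -0.11 and 0.21. Among 584 genes of mean level 5 to 7 it was -0.95 in vehicle 1 and 0.91 in vehicle 6. Among 8718 genes of mean level -6 to -3 it ran from -0.49 in vehicle 3 to 1.01 in vehicle 6. Among 10790 genes below -6 it was -0.79 in vehicle 1 and 1.25 in vehicle 6. Quantile normalisation, which gives all arrays 1 distribution, brought the brightest bin to between -0.09 and 0.06. It left the bin of -6 to -3 between -0.29 in vehicle 1 and 0.58 in vehicle 6. For several bright genes the SD under quantile normalisation is given as well. Counts of genes highest in a tumour are read against all genes above background, of which vehicle 6 was highest for 44.2%, vehicle 5 for 23.8%, vehicle 3 for 7.81% and vehicle 4 for 7.47%.

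**Figure D1:**
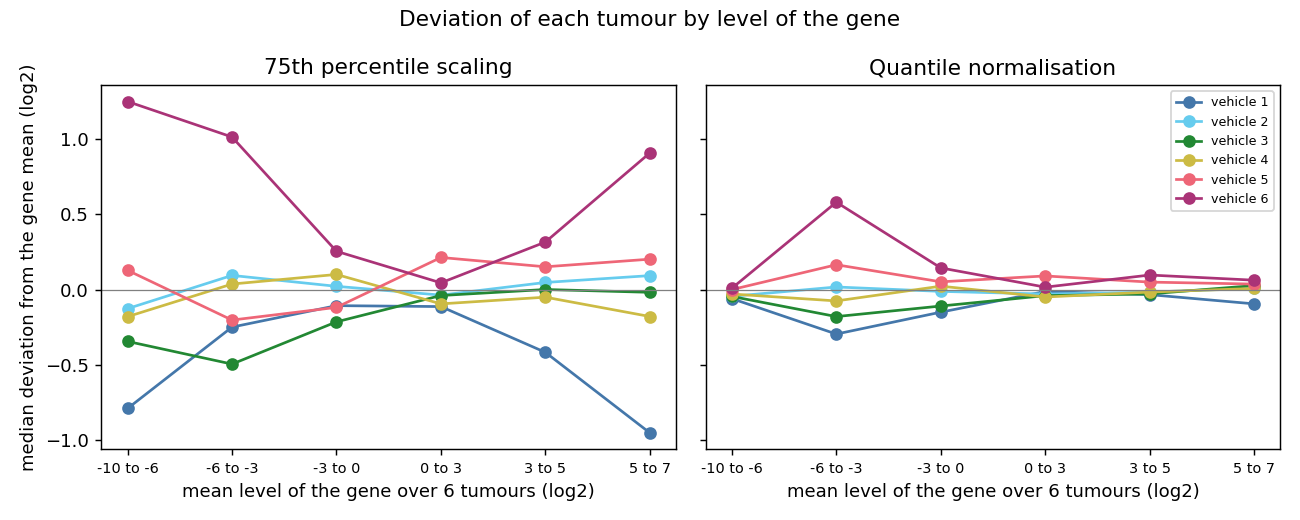
Median deviation of each vehicle tumour from the gene's mean (log2, y axis) for genes in bins of mean level (log2, x axis), under scaling to the 75th percentile (left) and quantile normalisation (right). Points are medians over the genes of a bin; vehicle 1 and vehicle 6 part at both ends on the left, at -0.95 and 0.91 in the brightest bin, and all tumours lie between -0.09 and 0.06 there on the right.

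Across all genes well above background, the tumours correlated with r between 0.893 (vehicle 1 with vehicle 6) and 0.978 (vehicle 2 with vehicle 4). These are correlations across genes, which are not independent replicates. Vehicle 1 to vehicle 4 correlated with each other at 0.966 to 0.978. Vehicle 5 correlated with the others at 0.928 to 0.946 and vehicle 6 at 0.893 to 0.928. The 2 least similar tumours also had the fewest spots above background, at 67.2% and 66.6%, and the largest shares of spots at the software's substitute value for undetectable signal, at 24.4% and 23.2% against 18.0% to 19.8% on the other arrays. The part of array quality in the values of these 2 tumours was not tested.

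The label was checked against genes that define the cell types a pancreatic tumour can hold. The epithelial keratin Krt8 had a level of 5.79 ± 0.78, Krt19 of 5.25 ± 0.74 and the ductal transcription factor Sox9 of 1.38 ± 0.46, and all were well above background on all 6 arrays. Epcam, an adhesion molecule of epithelial cells, was detected on all 6 as well, at 3.31, 3.67, 2.17, 3.10, -0.03 and 0.87. Vehicle 5 and vehicle 6 held the lowest Epcam values and the other 4 tumours lay at 2.17 or above. The acinar transcription factor Ptf1a was above background on none of the arrays, the insulin gene Ins2 on 3 of 6, and the dendritic cell receptor Xcr1 on none. Ptprc, the common leukocyte antigen, Col1a1, the main chain of type I collagen, and Pecam1, an endothelial adhesion molecule, were detected on every array. The tissue thus carried markers of ductal epithelium, fibroblasts, vessels and leukocytes, with no detected Ptf1a.

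**Figure D2:**
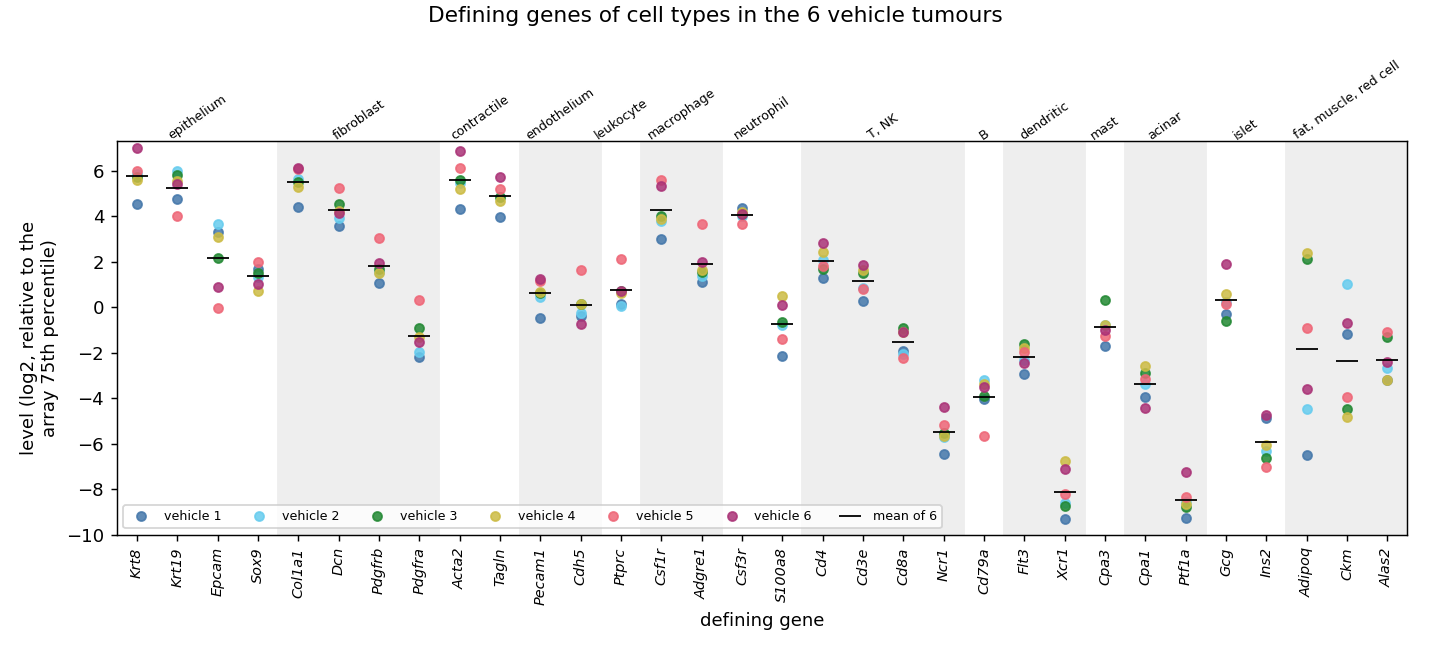
Level of defining genes (log2 relative to the array's 75th percentile, y axis) by cell type (x axis) in the 6 vehicle tumours; each point is a tumour and each bar the mean of 6. Adipoq spans -6.51 to 2.37 and Epcam -0.03 to 3.67, whereas Csf3r stays between 3.68 and 4.34.

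The call "well above background" was also read in genes of tissues that were not sampled. Of 20 testis, retina and lens genes, 8 were called well above background on all 6 arrays and 4 on none, and their median level was -5.49. The brightest was Sag, the arrestin of photoreceptors, at -1.06 ± 0.66. Detection alone is thus no sign that a gene is expressed here, and low levels below are reported as probe signal. In these female mice the X-linked Xist had a level of -2.06 ± 0.62 on all 6 arrays. The Y-linked Ddx3y, Eif2s3y and Zfy1 were above background on none. Other Y-linked probes gave signal, with Kdm5d at -4.50 ± 0.50 and Sry at -3.66 ± 0.84, each called on all 6 arrays.

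Ductal and epithelial genes were detected throughout, and 1 tumour stood lower than the rest. Of 22 members, 20 were well above background on all 6 arrays, with a median level of 2.18 over the list. Of these, 8 had an SD over 1 between tumours, where 11.1% of all genes above background did. The mean deviation of the list, taken as each gene's level minus its mean over the 6 tumours, was 0.08, 0.82, 0.39, 0.18, -1.19 and -0.29. Vehicle 5 was lowest and vehicle 2 highest, a 4.03-fold range, and quantile normalisation gave nearly the same range on the log2 scale (2.0 against 2.01). In bulk tissue, fewer cells of a type and less RNA per cell cannot be told apart.

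The junction genes carried much of that spread. The cadherin Cdh1, which holds epithelial cells together, was at 2.83, 2.83, 2.42, 2.60, 0.73 and 1.68, lowest in vehicle 5. The claudin Cldn4 was at 0.20, 1.39, 0.79, 1.30, -3.40 and -1.42 and the tight junction protein Ocln at -0.97, -0.76, -1.28, -2.12, -4.32 and -3.30, and in both the lowest tumour was vehicle 5 and the next vehicle 6. Cldn7 was the most variable member above background everywhere, from -2.21 through a median of 0.06 to 3.18, and did not follow that order, since vehicle 6 was highest and vehicle 1 lowest. The mucin Muc1 was at 3.92, 4.67, 3.48, 4.38, 1.66 and 2.92 and the secreted trefoil peptide Tff2 at 3.92, 4.45, 2.68, 2.07, 1.40 and 0.17. Muc1 was again lowest in vehicle 5, and Tff2 lowest in vehicle 6.

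Transcription factors of pancreatic identity split into steady and variable genes. Pdx1, which marks the pancreatic lineage, had the small SD of 0.15 around 1.98, and Gata6, linked to the classical form of the human disease, was at 2.35 ± 0.29. The hepatocyte and duct factors varied more: Foxa2 was at 1.90, 1.67, 1.67, 1.13, -0.30 and 0.37 and Onecut1 at 1.04, 1.60, 1.33, 1.06, -2.19 and -0.62. Both were lowest in vehicle 5 and next lowest in vehicle 6. The intestinal-type lectin Lgals4 and the keratins Krt8 and Krt18 were bright, at 5.02 ± 0.55, 5.79 ± 0.78 and 5.61 ± 0.42. Their SDs under quantile normalisation were 0.44, 0.18 and 0.24.

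Genes used to mark basal-like or squamous tumours were detected at a median level of -0.81, with 10 of 11 above background on all arrays. Mean deviations over the list were -0.18, 0.05, 0.17, 0.48, -0.64 and 0.12, lowest in vehicle 5. Bright members included the laminin-binding integrin Itga6 (3.37 ± 0.21), the p53-family factor Trp63 (2.84 ± 0.78) and the basal keratin Krt14 (1.07 ± 0.94). Areg, a ligand of the EGF receptor, varied most, at 0.84, 0.57, 0.79, 1.32, -2.61 and -1.68, with vehicle 5 and vehicle 6 below the other 4. Krt5, the usual partner of Krt14, was at -2.16 ± 1.05.

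Mesenchymal genes ran the other way in vehicle 5. All 12 members were above background on all arrays, and 9 of the 12 were highest in vehicle 5. By tumour, the list deviated by -0.08, -0.53, 0.06, -0.35, 0.85 and 0.05. Snai2, a repressor of epithelial genes, was at 0.16, -0.93, 0.34, -0.04, 2.49 and 1.23, and Cdh2, the cadherin of mesenchymal cells, at 0.71, 0.10, 0.98, 0.14, 2.82 and 2.23. The repressor Zeb1 was at -0.64, -1.27, -0.75, -1.35, 0.67 and 0.45. In all 3, vehicle 5 was highest and vehicle 6 second. The filament protein Vim was not highest in those tumours, at 4.33, 5.01, 4.79, 4.84, 4.68 and 3.78, and Twist1 was lowest in vehicle 6 at -3.76. Fibroblasts express these genes too, and the list of fibroblast genes was highest in the same tumour, with a mean deviation of 1.07. The share of tumour cells in the deviation was not tested.

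Cell cycle genes were detected in full, with 15 of 15 above background on all arrays and a median level of 1.59. None had an SD over 1. From vehicle 1 to vehicle 6 the list deviated by -0.23, -0.32, 0.17, -0.07, 0.54 and -0.09, and 8 of the 15 genes were highest in vehicle 5. The cyclin Ccna2 was at 2.57, 2.67, 2.99, 2.70, 4.29 and 3.40 and the proliferation antigen Mki67 at 1.12, 1.22, 1.51, 0.99, 2.59 and 1.90. The replication clamp Pcna was lowest in vehicle 1, at 3.96, 4.60, 4.64, 4.54, 4.64 and 4.78, and its SD of 0.29 became 0.07 under quantile normalisation. The list spanned 1.81-fold between the highest and the lowest tumour. With median centring it ran from -0.45 in vehicle 6 to 0.91 in vehicle 5. Vehicle 5 was highest under each of the 5 alternatives tried.

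The genes most often altered in pancreatic cancer were all detected, and Trp53 was the most variable of them. The probe for Trp53 (mm9 chr11:69403134-69403193), which encodes the p53 tumour suppressor, gave -0.57, -0.22, 0.65, 0.27, -2.79 and -2.03. Vehicle 5 and vehicle 6 lay below the other 4 tumours, and the range was 10.8-fold. It is the only Trp53 probe of the array, and which allele or exon it reads was not analysed here.

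Other members were steadier. The cell cycle inhibitor genes Cdkn2a and Cdkn2b, neighbours that share a locus, were at 3.25 ± 0.41 and 2.98 ± 0.41. Smad4, which carries TGF-beta signals to the nucleus, was at 3.30 ± 0.48, and the growth regulator Myc at 3.04 ± 0.38. Tgfbr2, a receptor for TGF-beta that stromal cells also carry, was at 1.97, 2.33, 2.34, 2.33, 4.46 and 3.47, highest in vehicle 5. Brca2 was at -0.85, -1.36, -0.83, -1.1, -2.24 and -2.33. Over the list of 12, the mean deviations spanned 0.50 log2.

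Hypoxia and glycolysis genes were detected in full, with all 13 above background on every array and a median level of 3.89. The mean deviations were -0.43, 0.39, -0.08, -0.11, -0.23 and 0.47. Vehicle 6 was highest, but under each of the 5 other settings tried vehicle 2 was. The glycolytic enzymes Aldoa, Pgk1 and Ldha were at 5.86 ± 0.85, 5.75 ± 0.78 and 5.73 ± 0.68, and quantile normalisation reduced these SDs to 0.18, 0.18 and 0.06. Car9, the carbonic anhydrase induced by low oxygen, was at 3.95, 4.57, 4.23, 3.71, 3.87 and 4.02. The angiogenic factor Vegfa was at 3.13, 4.08, 3.65, 3.24, 2.27 and 2.90, highest in vehicle 2 and lowest in vehicle 5. Egln3, an oxygen sensor that is itself induced by hypoxia, was the most variable member at 1.38, 2.08, 0.57, 1.16, -0.10 and -0.50.

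The collagen and matrix genes were detected in full, 22 of 22, with a median level of 3.36, and 14 of the 22 were highest in vehicle 5. Mean deviations over the list were -0.56, -0.17, 0.03, -0.07, 0.61 and 0.16. The range of 1.17 log2 shrank to 0.70 under quantile normalisation. Housekeeping genes deviated by -0.79, 0.02, -0.05, -0.23, 0.26 and 0.80 in the same tumours, and their range shrank from 1.59 to 0.17. The type I collagen chains Col1a1 and Col1a2 were at 5.51 ± 0.64 and 5.84 ± 0.74, and their SDs were 0.24 and 0.08 with quantiles aligned. Aligning the quantiles gives all arrays 1 distribution, so genes near the top of every array must end near 1 value. The smaller spread of these collagens and housekeeping genes follows from that step. Where their spread came from was not tested.

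Some matrix genes of middle brightness kept a spread of their own. Of the 22, 2 (9.09%) had an SD over 1, where 11.1% of all genes above background did. Col4a1, Col4a2 and Col6a1 were steadier, with SDs of 0.42, 0.41 and 0.49. Col5a1, a chain that seeds collagen fibrils, was at 2.70, 2.48, 3.12, 3.05, 5.25 and 5.11, and Col6a3, of the beaded filaments, at 2.74, 2.31, 2.71, 2.59, 4.40 and 3.91. Both were highest in vehicle 5 and vehicle 6. The microfibril gene Fbn1 was at 2.48, 2.20, 2.89, 2.50, 4.46 and 3.29, with vehicle 5 highest. Bgn, a small proteoglycan that binds collagen, had the largest SD of the list (1.42) and the opposite order, at 2.42, 2.42, 3.35, 3.40, 0.15 and 0.39. Col6a2 likewise had its lowest values in vehicle 5 and vehicle 6, at 2.33, 2.65, 3.08, 2.84, 1.99 and 1.67. The proteoglycans Dcn and Lum were at 3.55, 3.91, 4.55, 4.23, 5.24 and 4.15 and 1.51, 1.21, 1.5, 1.88, 2.97 and 2.28, highest in vehicle 5.

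Genes of fibroblast identity differed between tumours, lowest in vehicle 1 and highest in vehicle 5. Of 15 members 14 were above background on all arrays, and 12 of those 14 were highest in vehicle 5. By tumour, the list deviated by -0.78, -0.51, 0.22, -0.07, 1.07 and 0.06, a 3.6-fold range that was 1.59 against 1.85 log2 under quantile normalisation. The receptor Pdgfrb was at 1.05, 1.53, 1.68, 1.52, 3.06 and 1.94 and Pdgfra at -2.17, -1.97, -0.91, -1.29, 0.33 and -1.52. Fap, the fibroblast activation protease, was at -0.31, -0.01, 0.77, 0.48, 1.56 and 1.35. Pi16, a marker of fibroblasts in normal connective tissue, was at -1.81, 0.00, 1.49, 0.31, 2.57 and 1.17, and the matrix protein Dpt, the most variable, at -3.75, -1.63, -0.54, -1.51, 0.87 and -2.20. In all 5 vehicle 1 was the lowest tumour and vehicle 5 the highest.

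Contractile genes spanned 0.59 log2, and were highest in vehicle 5, or in vehicle 3 with the mean of probes. Of 10, 9 were above background on all arrays and their mean deviations were -0.17, -0.16, 0.03, -0.03, 0.42 and -0.08. The brightest probe of smooth muscle actin, Acta2, gave 4.34, 5.46, 5.59, 5.20, 6.14 and 6.86, and its SD of 0.85 became 0.34 under quantile normalisation. The next probe of the same gene gave 4.30, 4.64, 5.22, 4.71, 4.13 and 3.86, so vehicle 6 was highest by the first and lowest by the second. The calponin Cnn1 was at 0.29, 0.46, 0.58, 0.35, -0.21 and -1.12 and the enteric-type actin Actg2 at 3.08, 2.72, 3.36, 3.71, 1.73 and 2.01, both lower in vehicle 5 and vehicle 6 than in the other 4. The actin-binding Cald1 was at 3.45, 3.02, 3.16, 3.13, 4.95 and 4.24, higher in those same tumours.

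Genes of cytokine-secreting fibroblasts were detected at a median level of -0.89, 11 of 12 on all arrays. Cxcl12, a chemokine that fibroblasts release, was at -1.46, -0.30, 1.04, 0.65, 2.17 and 0.69, lowest in vehicle 1 and highest in vehicle 5. The cytokine Il6 was dim, at -3.41 ± 0.74. Il11, which acts on stromal cells, was the most variable, at -0.34, -0.25, 0.02, 0.67, -1.57 and 3.40, and its high value came from vehicle 6 alone. Ly6c1 was at 4.74, 5.79, 5.46, 5.52, 5.45 and 5.82, and its close relative Ly6c2 at 4.72, 5.79, 5.41, 5.49, 5.34 and 5.76. The probes of the last pair gave nearly the same value in each tumour, and whether they read each other's RNA was not tested.

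The list for antigen-presenting fibroblasts or mesothelium held bright genes shared with other cells, such as Krt19 and the class II genes. Msln, a surface protein of mesothelium and of many pancreatic cancers, was at 4.53, 5.48, 5.12, 4.75, 4.82 and 5.53. The acute-phase gene Saa3 was the most variable member, at -0.18, 2.23, 3.45, 4.06, 5.20 and 4.79, lowest in vehicle 1 and highest in vehicle 5. Upk3b, more restricted to mesothelium, was above background on 3 arrays and Lrrn4 on none.

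As a list, endothelial genes were lower in vehicle 1 than elsewhere. Of 14, 13 were above background on all arrays, at a median level of 0.75. From vehicle 1 to vehicle 6 the list deviated by -0.99, 0.05, 0.17, 0.16, 0.64 and -0.03, a 3.1-fold range that quantile normalisation left at 1.53 against 1.63 log2. Plvap, a protein of fenestrated vessels, was at 1.36, 3.11, 3.22, 3.22, 2.41 and 2.02, and Vwf, the clotting factor stored in endothelium, at 0.01, 1.72, 1.13, 1.21, 2.29 and 1.67. Robo4, a guidance receptor of vessels, was the most variable at -0.98, 0.34, 0.03, 0.32, 2.43 and 1.76. All 3 were lowest in vehicle 1. Of the 13, 10 were lowest there, where 22.8% of all genes above background were, and 3 in vehicle 6. The defining marker Cdh5 was at -0.40, -0.23, 0.13, 0.16, 1.62 and -0.72 and Eng at 0.11, 1.33, 1.52, 1.18, 0.94 and -0.02, both lowest in vehicle 6.

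Pericyte genes differed by 1.44-fold between extremes, with mean deviations of -0.36, 0.17, 0.11, 0.01, 0.02 and 0.05, and vehicle 1 was again lowest. With the mean of probes they ran from -0.54 in vehicle 1 to 0.41 in vehicle 6. Notch3, a receptor of mural cells, was at 1.73 ± 0.47, and Rgs5 at -2.31, -1.29, -0.65, -1.97, -2.83 and -2.70. Nerve and Schwann cell genes had a median level of -2.43 and deviations of -0.48, 0.01, -0.45, -0.18, 0.30 and 0.80. Ngfr, the low-affinity neurotrophin receptor that some fibroblasts also carry, was at -2.37, -1.64, -2.03, -1.42, 1.18 and -0.12, highest in vehicle 5. Tubb3 and Uchl1 were brighter, at 2.32 ± 0.40 and 0.87 ± 0.68, and are expressed outside nerves too.

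All 10 genes shared by leukocytes were detected on all arrays, at a median level of 1.28. The mean deviations were -0.39, -0.35, 0.20, 0.22, 0.63 and -0.31, highest in vehicle 5, where 7 of 10 genes peaked. Ptprc was at 0.16, 0.05, 0.74, 0.63, 2.11 and 0.73 by its brightest probe, which put vehicle 5 apart from the other 5. A second Ptprc probe gave -0.24, -0.67, -1.37, -0.20, -1.43 and 0.29, with vehicle 5 lowest, so the order of tumours for this gene depended on the probe. Coro1a, an actin regulator of leukocytes, was at 1.78, 2.23, 2.83, 2.65, 3.27 and 2.73 and the integrin chain Itgb2 at 1.86, 1.72, 2.45, 2.28, 2.76 and 2.35. Laptm5, a lysosomal protein of leukocytes, was at 1.13, 1.41, 1.78, 1.47, 0.98 and -1.19, with vehicle 6 far below the rest. Vav1, a signalling protein of blood cells, was at 0.30, 0.59, 0.95, 0.86, 3.13 and 2.03.

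Macrophage genes were detected in every tumour and peaked in vehicle 5. All 20 were above background on all arrays, with a median level of 1.83, and 14 of 20 were highest in vehicle 5. Mean deviations over the list were -0.64, -0.28, -0.09, 0.03, 0.89 and 0.10, a 2.89-fold range, and 1.22 log2 against 1.53 under quantile normalisation. Adgre1, the F4/80 antigen, was at 1.11, 1.38, 1.56, 1.63, 3.66 and 1.99, and Csf1r, the receptor that keeps macrophages alive, at 3.01, 3.79, 4.02, 3.88, 5.61 and 5.35. By these probes, the brightest of each gene, vehicle 5 was highest for both and vehicle 1 lowest. A second Csf1r probe, above background on all arrays, gave -1.03, -0.94, -0.91, -0.76, -1.28 and -1.67, with vehicle 5 and vehicle 6 lowest. The second Adgre1 probe, above background on 5 arrays, gave -3.92, -4.16, -3.44, -3.67, -3.73 and -5.73, with vehicle 3 highest.

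Cd163, a scavenger receptor of tissue macrophages, was the most variable at -4.86, -2.13, -1.04, -1.65, -0.04 and -3.69. Mrc1, the mannose receptor, was at 1.09, 1.03, 1.83, 1.87, 3.55 and 1.26, and Siglec1 of sinus macrophages at -3.09, -2.46, -2.32, -1.80, -0.12 and -1.78. The lipid receptor Trem2 was at 1.84, 2.07, 2.19, 2.20, 4.37 and 2.46. All 4 were highest in vehicle 5. Arg1, an arginine-degrading enzyme of alternatively activated macrophages, did not follow, at 2.59, 1.17, 1.17, 2.32, 1.96 and 1.12. The complement genes C1qa and C1qb were bright and steady, at 5.21 ± 0.59 and 4.80 ± 0.44. Spp1, or osteopontin, which tumour cells also make, was at 6.08 ± 0.76.

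Monocyte and recruitment genes were detected in full (13 of 13). By tumour, the list deviated by -0.09, -0.28, 0.00, 0.13, 0.55 and -0.31, and 7 were highest in vehicle 5. The monocyte-attracting chemokines Ccl2, Ccl7 and Ccl12 were at 2.41, 1.24, 2.14, 2.29, 3.17 and 2.02, at 1.02, 0.33, 1.25, 1.48, 2.69 and 1.67, and at 2.33, 2.07, 1.98, 2.91, 4.0 and 2.37. All 3 were highest in vehicle 5. Their receptor Ccr2 was at -2.57, -3.03, -2.13, -2.52, -2.53 and -4.69, lowest in vehicle 6. Csf1, the ligand of Csf1r, was at 1.51, 0.65, 1.22, 0.79, 2.26 and -0.08. The chitinase-like Chil3 was the most variable, at 2.98, 1.36, 1.09, 1.95, 0.33 and -0.73, highest in vehicle 1 and lowest in vehicle 6.

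Neutrophil and granulocyte genes had another order of tumours, highest in vehicle 4 and lowest in vehicle 5, or in vehicle 1 when arrays were centred on their median. Of 19, 18 were above background on all arrays, at a median level of -1.89, and 10 of the 18 were highest in vehicle 4. Mean deviations were -0.37, 0.16, -0.13, 0.90, -0.74 and 0.18, 1.64 log2 between extremes and 1.45 under quantile normalisation. The paired calcium-binding proteins S100a8 and S100a9 were at -2.13, -0.80, -0.66, 0.52, -1.38 and 0.12, and at -1.75, -0.08, 0.24, 1.04, -0.78 and 0.55. Ly6g, the usual neutrophil antigen, was at 2.06, 2.21, 0.99, 2.51, -0.39 and -0.35. Ltf, or lactoferrin, varied most, at -2.09, -1.02, -2.29, 0.80, -5.12 and -3.03, and Lcn2, which epithelium makes as well, was at 3.60, 4.83, 3.65, 5.05, 1.84 and 3.52. Vehicle 5 had the lowest Ly6g, Ltf and Lcn2.

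The granulocyte growth factor receptor Csf3r was at 4.34, 3.99, 4.10, 4.19, 3.68 and 4.12. Its SD of 0.22 became 0.50 under quantile normalisation and 0.53 in the authors' deposited table. Of the chemokines that attract neutrophils, Cxcl2 was at -4.25 ± 0.89, Cxcl5 at -1.99 ± 0.91 and Cxcl1 at -0.53 ± 1.0, with Cxcl1 reaching 1.33 in vehicle 6. Il1b, an inflammatory cytokine, was at -0.03, 0.13, -0.31, 0.59, -1.91 and -1.34, lowest in vehicle 5 and then vehicle 6.

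T cell genes were detected at a median level of -0.69, with 18 of 19 above background on all arrays, and vehicle 1 was lowest. From vehicle 1 to vehicle 6 the list deviated by -0.65, -0.14, 0.18, 0.33, -0.12 and 0.39, a 2.06-fold range. The receptor chains Cd3e and Cd3d were at 0.26, 0.87, 1.5, 1.66, 0.79 and 1.87, and at 0.14, 0.35, 1.08, 1.28, 0.54 and 1.32. Cd4 was at 1.29, 2.09, 1.69, 2.44, 1.80 and 2.84 and Cd8a at -1.91, -2.04, -0.92, -1.07, -2.25 and -1.1. Cd8b1, the partner chain of Cd8a, was at -0.20, 0.10, 1.04, 0.68, 0.11 and 1.21. Vehicle 1 was the lowest tumour for Cd3e, Cd3d, Cd4 and Cd8b1, whereas vehicle 5 was lowest for Cd8a. Macrophages of some tissues carry Cd4 as well.

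Cytotoxic and natural killer genes were detected at a median level of -3.58 with 14 of 18 called on all arrays. The mean deviations were -0.59, -0.33, 0.15, 0.26, -0.10 and 0.60, and 10 of the 14 were highest in vehicle 6, the dimmest array and the highest for 44.2% of all genes. Centred on array medians, the list was highest in vehicle 3 instead. Granzyme genes differed in pattern: Gzma was at -2.51, 0.27, -1.91, 0.30, -0.96 and -0.08, Gzmb at -3.28, -2.70, -3.32, -2.46, -4.91 and -5.12 and Gzmc at 0.45, 0.00, 0.46, 0.44, 0.56 and 0.60. The interferon gene Ifng was at -3.48, -4.16, -2.56, -3.04, -4.64 and -3.51 and the chemokine Ccl5 at 1.97, 2.74, 3.21, 3.31, 3.48 and 4.70. Ncr1, the natural killer receptor, was at -5.49 ± 0.69, and Eomes was above background on 4 arrays. At these levels the testis and retina genes gave signal too, so little can be read from them.

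Regulatory T cell and checkpoint genes had a median level of -1.94, and 14 of 16 were called on all arrays. None of these 14 had an SD over 1. Foxp3, the factor of regulatory T cells, was at -4.41, -3.09, -3.08, -3.23, -3.50 and -3.15, with vehicle 1 below the rest. Ctla4 was at -5.17, -4.02, -4.46, -3.76, -3.85 and -3.89, Pdcd1 (PD-1) at -2.23, -2.25, -0.81, -0.98, -2.10 and -1.69 and its ligand Cd274 (PD-L1) at -1.76, -2.22, -2.45, -1.91, -2.26 and -2.60. Pdcd1 was highest in vehicle 3 and vehicle 4. Icos, a costimulatory receptor, was the most variable of the 14, at -4.20, -2.64, -2.01, -1.72, -2.59 and -1.82, and Tgfb1 the brightest, at 3.05 ± 0.49.

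B cell genes had a median level of -3.79, where all genes had -3.36. Of the 12, 7 were called on all arrays, where 62.5% of all genes were. Cd79a, a signalling chain of the B cell receptor, was at -4.04, -3.21, -3.89, -3.37, -5.65 and -3.51, lowest in vehicle 5. The kinase Blk was the most variable at -4.73, -1.66, -1.55, -4.01, -5.02 and -4.81, highest in vehicle 2 and vehicle 3. Among plasma cell genes, Jchain, which joins secreted antibodies, was at -0.26, 1.55, 1.13, 0.47, -0.81 and 0.48 and Mzb1 at -3.62, -2.14, -1.56, -1.22, -3.76 and -2.09. Both were lowest in vehicle 5 and vehicle 1. Xbp1 and Sdc1 were at 4.03 ± 0.29 and 4.27 ± 0.29, and epithelial cells express both. The constant region genes Ighm, Igkc and Trac were not matched to a probe by name.

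Dendritic cell genes were called on all arrays for 13 of 15 members, at a median level of -0.61, with deviations of -0.61, -0.03, 0.29, 0.39, 0.18 and -0.22. The growth factor receptor Flt3 was at -2.92, -2.33, -1.62, -1.79, -1.95 and -2.44, Clec9a of cross-presenting cells at -3.41, -3.51, -2.38, -2.08, -3.13 and -3.31, and Batf3, their transcription factor, at -0.41, 0.44, 1.28, 1.34, 0.20 and 0.10. Vehicle 3 and vehicle 4 were the highest for all 3. Clec10a, a lectin of conventional dendritic cells and macrophages, was at -1.97, -0.38, 0.32, 0.12, 0.64 and -2.40, low in vehicle 1 and vehicle 6. The bright Siglech probe, for a receptor of plasmacytoid cells and microglia, was at 3.84, 4.15, 3.89, 4.19, 3.77 and 5.10, and 2 other probes of the gene averaged -2.66 and -5.45.

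Mast cell genes were detected in every tumour, and 6 of the 9 were highest in vehicle 3. Mean deviations over the list were -0.46, 0.57, 0.84, 0.28, -0.85 and -0.39, 3.24-fold between extremes. The carboxypeptidase Cpa3 was at -1.72, -0.78, 0.30, -0.80, -1.25 and -0.98, the chymase Cma1 at -1.26, -0.08, 0.93, -0.06, -0.65 and -0.34 and the tryptase Tpsb2 at -1.11, -0.12, 0.62, -0.28, -1.35 and -0.63. In each of these 3, vehicle 3 was highest and either vehicle 1 or vehicle 5 lowest. The mucosal protease Mcpt1 varied most, at 0.03, 1.05, -0.04, 0.16, -3.08 and -2.83, with vehicle 5 and vehicle 6 far below the rest.

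The 10 class II genes had a median level of 2.92 and the 11 class I genes of 3.67, all detected on all arrays, and none had an SD over 1. By tumour, the class II list deviated by -0.51, 0.04, 0.32, 0.35, -0.19 and -0.02, a 1.82-fold range. Of its 10 genes, 7 were lowest in vehicle 1, where 22.8% of all genes above background were. The class I list deviated by -0.22, -0.10, 0.32, 0.20, -0.01 and -0.19, a 1.45-fold range. The invariant chain Cd74 was at 4.70, 5.91, 5.73, 5.66, 5.16 and 5.37, and the class II chains H2-Aa and H2-Ab1 at 4.49 ± 0.43 and 4.87 ± 0.40. The class I heavy chain H2-K1 was at 4.75, 5.33, 5.55, 5.47, 5.09 and 5.35 and its partner B2m at 4.55, 5.17, 5.26, 5.25, 4.82 and 4.53. Probes of these polymorphic, related genes may read more than 1 of them, which was not tested.

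Interferon response genes had a median level of 1.22 and mean deviations of 0.08, -0.10, -0.10, 0.21, -0.25 and 0.15. All 18 were detected on all arrays. Single members still differed. Cxcl9, a chemokine for T cells, was at 3.28, 3.15, 4.25, 4.13, 2.13 and 4.50, Cxcl10 at 0.62, -0.51, 0.01, 0.81, -1.44 and -1.75 and Ido1, a tryptophan-degrading enzyme, at -0.35, 1.03, 2.61, 0.58, -2.40 and 1.52. Vehicle 5 was lowest for Cxcl9 and Ido1, and vehicle 6 for Cxcl10.

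The order of tumours was checked for these lists and those of normal pancreas, fat, muscle and blood, 33 in all, under median centring, quantile normalisation, normexp background correction, the authors' deposited table and the mean of probes. Of the 33, 6 had the same highest and the same lowest tumour under all 5: ductal and epithelial, mesenchymal transition, fibroblast identity, endothelium, adipocyte and macrophage genes. The highest tumour alone was the same for 14 lists and the lowest for 18. Median centring moved the arrays by -0.36 (vehicle 6) to 0.37 (vehicle 5) log2 as a whole, so deviations smaller than that depend on how the arrays are scaled.

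**Figure D3:**
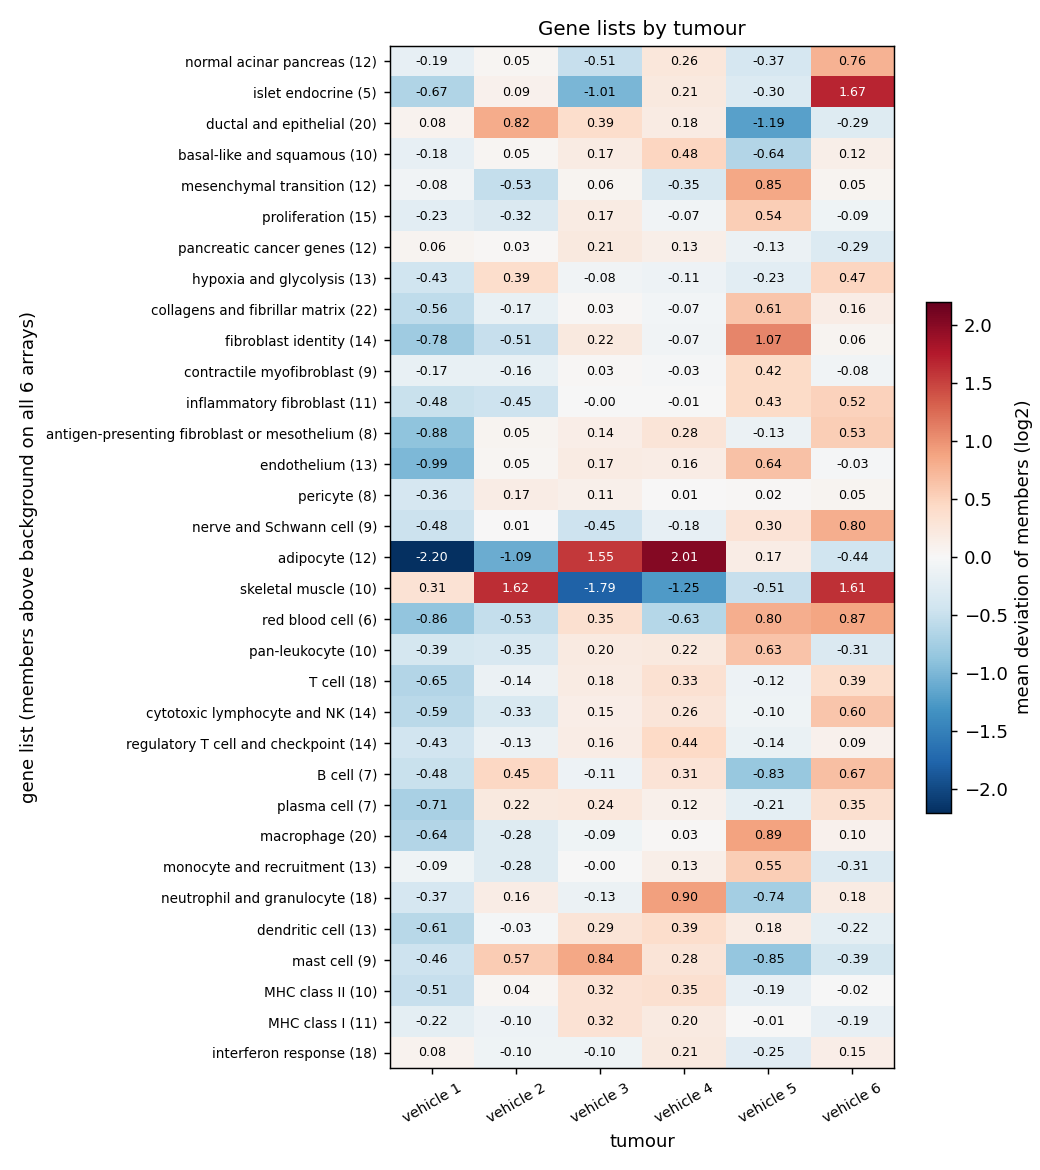
Mean deviation of each gene list from its members' means (log2, colour and printed value) for the 6 vehicle tumours (columns); rows are lists, with the number of members above background on all 6 arrays in parentheses. Adipocyte genes run from -2.20 in vehicle 1 to 2.01 in vehicle 4 and skeletal muscle genes from -1.79 in vehicle 3 to 1.62 in vehicle 2, the widest rows of the map.

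Lists of normal pancreas genes had low median levels, with single brighter members. Of 20 acinar genes 12 were called on all arrays, where 62.5% of all genes were. Their median level was -4.16, against -3.36 for all genes and -5.49 for testis, retina and lens genes. The brightest was Ctrb1, at -0.08, 0.62, -0.50, 0.93, -0.01 and 2.18, lowest in vehicle 3 and highest in vehicle 6. Clps and Cel were at -1.08 ± 0.72 and -1.44 ± 0.63. The carboxypeptidase Cpa1, normally one of the most abundant acinar transcripts, was at -3.94, -3.37, -2.88, -2.59, -3.17 and -4.43, and the amylase Amy2a5 was called on 3 arrays, with its highest values in vehicle 4 (-3.39) and vehicle 3 (-4.45). The elastase-family gene Cela1 was at 1.60, 2.30, 0.11, 0.80, -1.96 and -0.75, lowest in vehicle 5. The islet list had a median level of -6.31, with 5 of 14 called on all arrays and all 5 highest in vehicle 6, the highest tumour for 44.2% of all genes and for all 4 testis genes called on every array. Glucagon, Gcg, was at -0.29, 0.25, -0.61, 0.57, 0.14 and 1.92 and chromogranin A, Chga, at -2.44, -0.38, -1.60, -0.14, -0.62 and 1.57. The somatostatin gene Sst and the amylin gene Iapp were called on no array.

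Adipocyte genes gave the largest difference between tumours of any list over members called on all arrays. Over all measured members, skeletal muscle genes spanned 4.24 log2 and adipocyte genes 4.21. All 12 were called on all arrays, 9 of them had an SD over 1, and 10 were highest in vehicle 4. By tumour, the list deviated by -2.20, -1.09, 1.55, 2.01, 0.17 and -0.44, an 18.6-fold range (4.21 log2, and 4.26 with quantiles aligned). Vehicle 3 and vehicle 4 were high, vehicle 1 and vehicle 2 low. The adipokine Adipoq (mm9 chr16:23157576-23157635) was at -6.51, -4.49, 2.13, 2.37, -0.92 and -3.60, a 473-fold range. Cfd, or adipsin, was at -3.28, -0.28, 5.02, 5.23, 2.88 and 0.86 and resistin, Retn, at -5.25, -2.96, 1.86, 2.94, 0.39 and -2.11. A second probe of each gave the same order of the extremes, from -3.68 to 4.87 for Cfd and from -5.04 to 2.39 for Retn. The lipid carrier Fabp4 and the droplet protein Plin1 followed, at 0.05, 0.76, 3.47, 3.87, 2.49 and 2.07, and at -6.0, -4.46, -1.33, -0.81, -2.47 and -2.63. Leptin (Lep) and Pparg did not, at 0.17, 0.26, 0.03, 0.99, 0.22 and 1.63, and at 2.68, 3.14, 3.04, 3.27, 1.15 and 2.85.

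Skeletal muscle genes differed nearly as much and in another order. Of 12, 10 were called on all arrays and 8 of those had an SD over 1. From vehicle 1 to vehicle 6 the list deviated by 0.31, 1.62, -1.79, -1.25, -0.51 and 1.61, a 10.6-fold range, high in vehicle 2 and vehicle 6 and low in vehicle 3 and vehicle 4. Creatine kinase, Ckm, was at -1.19, 1.01, -4.49, -4.84, -3.93 and -0.69 and the fast troponin Tnnc2 at -0.45, 1.5, -4.0, -3.21, -1.13 and 2.04. Myoglobin, Mb, was undetected in vehicle 3 and vehicle 4 (-8.84 and -8.67) and at -0.94 to 1.04 elsewhere. Red blood cell genes ran from -0.86 in vehicle 1 to 0.87 in vehicle 6, or with vehicle 5 highest when quantiles were aligned, and the globin Hba-a1 was at 3.74, 4.73, 5.31, 4.36, 5.87 and 6.07. Liver genes had a median level of -2.29, neuron genes of -3.25 and heart genes of -3.04, and their mean deviations spanned 1.48, 1.75 and 1.5 log2. Some single genes below, such as Mup1 and Serpina3n, were highest in vehicle 3 and vehicle 4 as the adipocyte list was. Others, such as Artn and Cdc27, were not. The part of adjacent tissue in any of these genes was not tested.

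The brightest 1% of genes, 371 with mean levels of 5.37 to 6.16, were 38 ribosomal protein genes, 115 other named genes and 218 unnamed or predicted transcripts. The named ones at the top were S100a6 (mm9 chr3:90418160-90418219), a calcium-binding protein of epithelium and fibroblasts, at 5.05, 6.11, 6.16, 5.89, 6.43 and 7.29, and Spp1 (mm9 chr5:104869788-104869847) at 4.93, 6.15, 5.95, 5.80, 6.36 and 7.27. Next came the polyubiquitin gene Ubb (6.04 ± 0.80), the translation factor Eef1g (5.97 ± 0.78), the folding enzyme Ppia (5.96 ± 0.85), the galectin Lgals1 (5.92 ± 0.79) and the chaperones Clu (5.91 ± 0.84) and Hsp90ab1 (5.90 ± 0.79). Under quantile normalisation the SDs of these 6 lay between 0.08 (Ubb) and 0.21 (Clu), and that of Spp1 was 0.07. Others among the 20 were Elk1, Exosc2, Kctd14, Ttc38, Tpt1, S100a11, Aldoa, Fau, Glrx2 and Sparc. S100a6, S100a11, Lgals1, Spp1 and Sparc are genes of secreted, calcium-binding or matrix-related proteins known from tumour and stroma, and the ubiquitin, translation and glycolysis genes are expressed by all cells.

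Not all of these signals can be read as the named gene. For Elk1, a transcription factor, the other 2 probes had mean levels of 0.31 and -8.43, against 5.99 ± 0.74 for the brightest. Glrx2 had 3 other probes at 2.23 or below, and Ttc38 a pair at -2.23 and -3.28. Clu had 1 other probe at -6.47. The level given for these genes is that of 1 probe, and what that probe reads was not tested.

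Among the brightest 371 genes, vehicle 6 was highest for 355 and vehicle 1 lowest for 367. Their unscaled signal spanned a median of 0.73 log2 between tumours, less than the 2.06 log2 between the arrays' 75th percentiles, and no spot was marked as saturated. Their median SD was 0.68, and 0.16 under quantile normalisation. The extremes of the most abundant transcripts thus fell on the dimmest array and the brightest array. In the 20 named above, unscaled signal lay between 18.38 (Fau, vehicle 1) and 19.59 (S100a6, vehicle 3). Differences between tumours in their scaled levels thus lie largely in the percentile subtracted. Whether signal levelled off at the bright end was not tested.

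At the other end, the steadiest of the brighter named genes were Ing1, a chromatin reader, at 2.37, 2.36, 2.36, 2.43, 2.39 and 2.35, the mitochondrial protein Apoo (1.68 ± 0.05), the helicase Ddx28 (0.02 ± 0.06), the zinc finger gene Zfp213 (1.30 ± 0.06) and Gtf2h4, a subunit of a general transcription factor (2.40 ± 0.06). Their levels lay between 0.02 and 2.40, where the scaling lines up the arrays. With quantiles aligned, the SD of Ing1 was 0.13 in place of 0.03, and that of Gtf2h4 0.17 in place of 0.06.

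Between tumours, the median SD of the 23175 genes above background was 0.61 log2, and 2577 (11.1%) had an SD over 1, with the nearest genes on either side of that mark at 1.00004 and 0.9999. Without vehicle 6, 1698 genes did, and without both vehicle 5 and vehicle 6, 812, a choice made after the data were seen. Vehicle 6 was the highest tumour for 1104 of the 2577, and vehicle 3 and vehicle 5 the lowest for 840 and 733. In 1913 of the 2577 the SD was over 1 with quantiles aligned too, and vehicle 6 was highest for 533 of those and vehicle 5 lowest for 487. Vehicle 3 was then lowest for 303, fewer than vehicle 1 (384) and vehicle 6 (369).

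The 20 named genes with the largest SD, from 2.34 to 3.64, included the adipocyte genes Adipoq, Cfd and Retn and the muscle genes Ckm and Tnnc2, described above. The major urinary protein genes, a family of lipocalins made in liver and some glands, had the extremes of the adipocyte list but another order between them: Mup19 was at -3.86, 0.98, 4.83, 4.56, 0.40 and 1.44, Mup1 at -5.02, -1.22, 2.98, 2.96, -2.11 and -1.39 and Mup4 at -3.66, -0.58, 3.19, 3.21, -1.68 and -0.30. Vehicle 3 and vehicle 4 were highest and vehicle 1 lowest for each. These genes are near-identical copies, so their probes may read the same RNA. Mup5, Mup17 and Mup21, called on 5 arrays each, were undetected in vehicle 1 and highest in vehicle 3 and vehicle 4. The acute-phase inhibitor Serpina3n was at -2.22, -0.11, 1.81, 1.33, -1.99 and -4.28, again highest in vehicle 3 and vehicle 4.

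**Figure D4:**
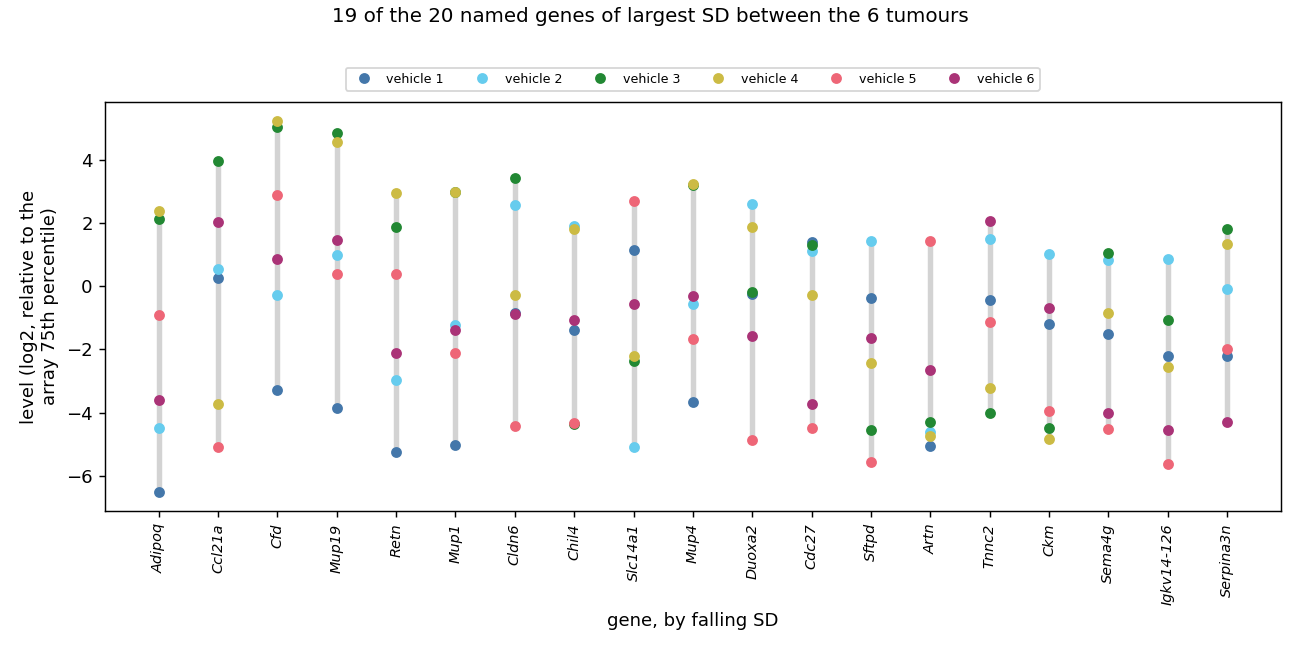
Level (log2 relative to the array's 75th percentile, y axis) of 19 of the 20 named genes of largest SD (x axis, by falling SD) in the 6 vehicle tumours; points are tumours and grey bars span the range. Adipoq, Cfd, Mup19, Retn, Mup1 and Mup4 have vehicle 3 and vehicle 4 at the top and vehicle 1 at the bottom.

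Others of the 20 have been described in epithelia. Cldn6, a claudin of immature epithelium, was at -0.86, 2.57, 3.42, -0.28, -4.42 and -0.87, the peroxide-generating partner gene Duoxa2 at -0.26, 2.60, -0.19, 1.85, -4.86 and -1.57, and the surfactant protein Sftpd at -0.37, 1.43, -4.54, -2.43, -5.56 and -1.65. All 3 were lowest in vehicle 5. The chitinase-like Chil4 was at -1.38, 1.89, -4.38, 1.80, -4.33 and -1.08, high in vehicle 2 and vehicle 4. Mmp7, a protease of ductal tumour cells called on 5 arrays, was at -0.45, 3.51, -2.51, -2.33, -7.96 and -2.42, and its second probe spanned -8.26 to 3.51 with the same extremes. The desmosomal cadherin Dsg2 was undetected in vehicle 5 (-8.27) and reached 1.17 in vehicle 2.

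Ccl21a, the chemokine of lymphatic vessels and lymph nodes, varied second most, at 0.25, 0.53, 3.95, -3.74, -5.09 and 2.02, a 526-fold range. Vehicle 3 and vehicle 6 were high and vehicle 4 and vehicle 5 low. The antibody gene segment Igkv14-126 was at -2.21, 0.86, -1.08, -2.57, -5.62 and -4.56. It was highest in vehicle 2 and lowest in vehicle 5. Neuropeptide Y, Npy, was at -1.82, -3.60, -7.03, 2.28, -6.49 and -7.28, above background on 3 arrays and high only in vehicle 4.

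For several genes vehicle 5 was the highest tumour by the brightest probe. Artn, a neurotrophic ligand, was at -5.06, -4.61, -4.30, -4.75, 1.42 and -2.64. The urea transporter Slc14a1 was at 1.13, -5.08, -2.38, -2.22, 2.69 and -0.57, and its second probe likewise had vehicle 5 highest (0.54) and vehicle 2 lowest (-4.58). The vesicle protein Syt13 was at -1.86, -3.76, -4.33, -8.63, 1.72 and -2.02.

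Other genes were low in vehicle 5 and vehicle 6 together. Ceacam2, a cell adhesion gene, was at 1.1, 2.17, 0.58, 0.96, -6.13 and -7.13, and was above background only in the first 4 tumours. Its second probe, called on 1 array, had vehicle 5 highest instead, at -4.52, with the others between -9.20 and -7.13. Cdc27 (mm9 chr11:104387366-104387425), a subunit of the complex that ends mitosis, was at 1.40, 1.12, 1.29, -0.28, -4.49 and -3.73. Its second probe gave -2.65, -2.77, -2.29, -3.22, -1.95 and -1.87, highest in the tumours where the first was lowest. The semaphorin Sema4g was at -1.52, 0.81, 1.06, -0.86, -4.51 and -4.02, and a second probe was also lowest in vehicle 5 and vehicle 6 (-8.26 and -7.18). Of 2553 variable genes with a value on every array, vehicle 5 and vehicle 6 were the 2 lowest for 581 (22.8%) and the 2 highest for 487 (19.1%). Vehicle 4 and vehicle 6 were the 2 highest for 499 (19.5%). With quantiles aligned, vehicle 5 and vehicle 6 were the 2 lowest for 606 and the 2 highest for 558. No other pair was as often the 2 highest. Only vehicle 1 with vehicle 3 were more often the 2 lowest, for 614.

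Unnamed transcripts varied more often than named genes. Of 14874 named genes above background 9.34% had an SD over 1, and of the unnamed or predicted transcripts 14.3%. Transcripts that the array names only by their genome position had an SD over 1 for 359 of 2361 (15.2%). In 354 of these with a value on every array, vehicle 5 and vehicle 6 were the 2 highest for 127 (35.9%), where among the other 2199 variable genes they were so for 360 (16.4%). Vehicle 4 with vehicle 6 were the 2 highest for 28.2% against 18.1%, and vehicle 2 with vehicle 6 for 20.9% against 13.6%, so the difference was not particular to 1 pair. These shares are counts over transcripts of the same 6 arrays and carry no test. The SD also went with level. Over all genes of a bin its median was 0.85 at mean levels of -6 to -3, 0.67 at -3 to 0, 0.47 at 0 to 3, 0.43 at 3 to 5 and 0.63 at 5 to 7. Neither these classes nor the gene lists were matched for level, and the part of level in their shares was not tested.

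For 10 pairs of defining genes the correlation over the 6 tumours was tested by an exact two-sided permutation test, whose smallest possible p is 0.0014 for Pearson's r and 0.0028 for Spearman's rho. By Pearson's r, 3 pairs passed after Benjamini-Hochberg adjustment, each with an adjusted exact permutation p = 0.0093. Epcam and Ptprc were inversely related (r = -0.88, Spearman's rho = -0.94, n = 6). Col1a1 and Acta2 rose together across tumours (r = 0.95, rho = 0.94), as did Adgre1 and Csf1r (r = 0.85, rho = 0.94). By Spearman's rho 0 of the 10 passed, the smallest adjusted exact permutation p being 0.0556 and 4 having an unadjusted p below 0.05. Leaving out 1 tumour, the pairs of Epcam with Ptprc and Col1a1 with Acta2 passed without vehicle 1 or vehicle 3 (adjusted exact permutation p = 0.0417) and missed the threshold without any of the other 4. Adgre1 with Csf1r passed without vehicle 1 only. Without vehicle 5 the adjusted exact permutation p was 0.194, 0.125 and 0.125 for the 3 pairs. Leaving out the 2 tumours farthest from the median of the first gene gave r = -0.86, 0.95 and 0.94 for these pairs.

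Each of the 3 relations depended on the probe or the scaling. With the mean of all probes in place of the brightest, r was 0.14 for Epcam with Ptprc, 0.54 for Col1a1 with Acta2 and 0.52 for Adgre1 with Csf1r. With quantiles aligned, r was 0.79 for Col1a1 with Acta2, which no longer passed. The probes of this pair had mean levels of 5.51 and 5.60. Among the genes of mean level 5 to 7, the median deviation was -0.95 in vehicle 1 and 0.91 in vehicle 6. The part of array brightness in the relation of Col1a1 and Acta2 was not tested. Among the pairs that did not pass, Cd3e and Cd8a had r = 0.835 (adjusted exact permutation p = 0.159), Cd3e and Cxcl9 0.76, Col1a1 and Pdgfrb 0.77, Epcam and Col1a1 -0.71, Epcam and Krt19 0.61, and Col1a1 and Ptprc 0.58. Csf3r and S100a8, both of neutrophils, had r = 0.06, and 0.87 without vehicle 1.

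**Figure D5:**
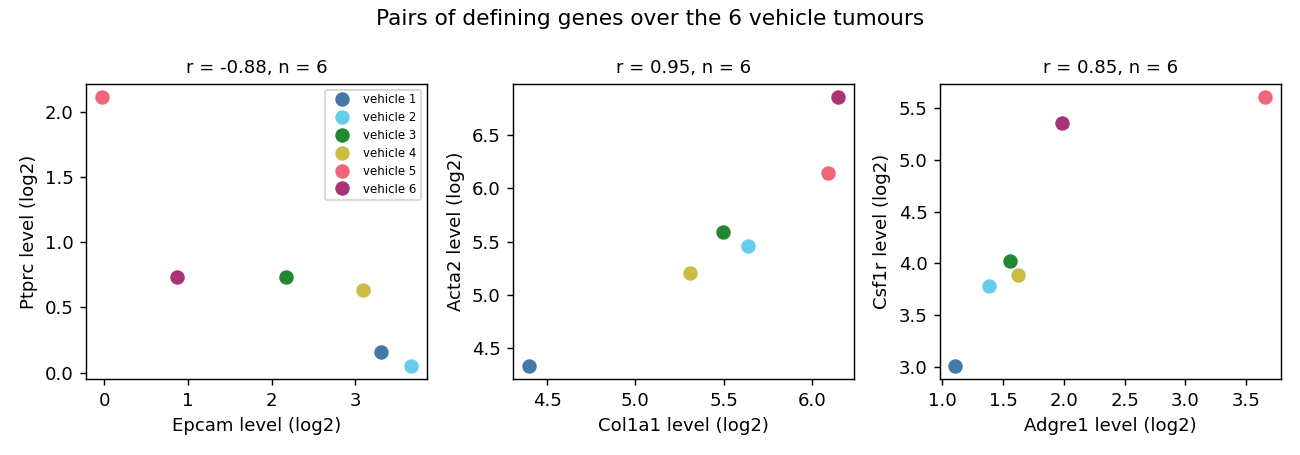
Levels (log2 relative to the array's 75th percentile, both axes) of 3 pairs of defining genes in the 6 vehicle tumours, each point a tumour. Epcam and Ptprc run in opposite directions (r = -0.88), Col1a1 and Acta2 (r = 0.95) and Adgre1 and Csf1r (r = 0.85) in the same direction, with vehicle 5 at an end of the first and the third.

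The 6 arrays lay on 3 slides of 2 arrays each: vehicle 3 and vehicle 5, vehicle 1 and vehicle 4, and vehicle 2 and vehicle 6. Each slide was scanned in 1 session, so slide and scan cannot be told apart, and 2 tumours per slide allow no correlation within one. A limma F test over slides called 0 of 23100 genes (0.0%) at an adjusted p below 0.05, with a smallest adjusted p of 0.724, and 1356 genes (5.87%) had an unadjusted p below 0.05. Leaving out any tumour leaves its slide with 1 array, as vehicle 6 alone when vehicle 2 is left out. Slide and tumour cannot then be told apart, so those fits are not read. Vehicle 5 and vehicle 6, the tumours least like the rest, were on different slides, as were vehicle 3 and vehicle 4, the tumours with high adipocyte genes. With 2 arrays per slide the F test can miss differences between slides. The part of the slide in these patterns was not tested.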

How the data were processed

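Scanner intensity per spot was extracted by the authors in Agilent's Feature Extraction software (version 11.5.1.1), per the file headers, and the headers name build mm9. The software had subtracted background and substituted a floor for undetectable spots, and only the red channel was used. The authors also deposited a table of log2 values for fewer probes, used as an alternative. Its columns each matched their own array best (r of at least 0.9965 across probes, column medians 10.71 to 10.90), it was not centred per gene, and no source used here gives its normalisation.

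Probes were named through a RefSeq accession (32994), a current symbol (10224), an older synonym (520) or the array's own name (12867). Outlier spots (71 to 156 per array) were left out, spots of a probe averaged, and a gene represented by its brightest probe. The number of arrays limits the precision. Python 3.11.15, scipy 1.17.1, R 4.3.3 and limma 3.58.1 were used, and the limma F test was tested on simulated data. Alternatives were median centring, quantile normalisation, normexp (offset 50), the deposited table, the mean of probes, other filters and thresholds, and leaving out each tumour.

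Named genes were the 20 brightest, the 20 of largest SD, 10 of largest SD called on 2 to 5 arrays, 5 of smallest SD, the 4 brightest and the most variable of each of 40 lists (510 genes, 507 measured), and the defining markers. Other list members were named with their values known. Members and lists were chosen with earlier results of these data known. The other 6 arrays of the series were not analysed here. Some named genes are not reported here. No sequence is shown, because no result rests on one.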

Additional observations from a re-analysis of the deposited data

Results flagged for a closer look

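Gaps between a tumour and the other 5 were looked at for 332 genes, lists and array measures with Dixon's criterion, and 18 stood out. Chance alone gives about 1 in 20, and genes of 1 tumour are not independent. All values are log2 levels or, for lists, mean deviations.

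In vehicle 5, Adgre1 was high at 3.66 (the others between 1.11 and 1.99), Trem2 at 4.37 (1.84 to 2.46), Ptprc at 2.11 (0.05 to 0.74) and Artn at 1.42 (-5.06 to -2.64). Cd79a was low there at -5.65 (-4.04 to -3.21) and Pparg at 1.15 (2.68 to 3.27). The contractile myofibroblast list was high in vehicle 5 at 0.42 (-0.17 to 0.03), but with the mean of probes vehicle 5 was at -0.045 and vehicle 3 was highest.

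In vehicle 6, the brightest Siglech probe was high at 5.10 (3.77 to 4.19) and the slow myosin Myh7 at 1.72 (-2.48 to -1.30). Laptm5 was low there at -1.19 (0.98 to 1.78) and the actin-bundling Fscn1 at 0.0396 (1.42 to 1.54).

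In vehicle 1, the brightest array, 4 values were low: H2-Eb1 at 3.89 (4.92 to 5.20), Ly6c1 at 4.74 (5.45 to 5.82), Pcna at 3.96 (4.54 to 4.78) and Icos at -4.20 (-2.64 to -1.72). Foxp3 was low there at -4.41 (-3.50 to -3.08), as was the pericyte list at -0.36 (0.01 to 0.17). In vehicle 2, Gzmc was low at -0.0018 (0.44 to 0.60).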

How the results depend on the processing

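The number of genes detected on all 6 arrays was little changed by the choice of probe (23300) or by leaving out a tumour (23244 to 23874). The 2577 genes with an SD over 1 became 1136 with normexp background correction, 1417 in the authors' deposited table (which holds fewer probes), 8720 with no filter on dim probes, 5472 with detection on at least 3 of 6 arrays, 14865 at a threshold of 0.5 and 459 at 1.5. Leaving out a tumour gave 1698 (without vehicle 6) to 3637, and leaving out vehicle 5 and vehicle 6 together 812. Median centring (2230), quantile normalisation (2107) and the mean of probes (2528) stayed within 1.5 times. Slides gave 0 called genes under every other scaling, probe choice and filter tried, and the smallest adjusted p by limma ranged from 0.437 to 0.840. Fits with a tumour left out hold a slide of 1 array and are not read.

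Of the pairs that passed, Epcam with Ptprc missed the threshold with median centring (r = -0.69) and changed sign with the mean of probes (0.14). Col1a1 with Acta2 missed it with quantile normalisation (0.79), the deposited table (0.75) and the mean of probes (0.54), and Adgre1 with Csf1r with the mean of probes (0.52). Csf3r with S100a8 changed sign with median centring (-0.36), quantile normalisation (-0.44), normexp (-0.0397) and the deposited table (-0.46). The cause was not tested. Leaving out a tumour, r ranged from -0.98 to -0.78 for Epcam with Ptprc, 0.92 to 0.99 for Col1a1 with Acta2, 0.83 to 0.97 for Adgre1 with Csf1r, -0.46 to 0.87 for Csf3r with S100a8, 0.0202 to 0.839 for Epcam with Krt19 and 0.66 to 0.93 for Cd3e with Cxcl9. Of the pairs that passed with 6 tumours, Epcam with Ptprc and Col1a1 with Acta2 were lost without vehicle 2, 4, 5 or 6 (adjusted exact permutation p 0.0556 to 0.194), and Adgre1 with Csf1r without any tumour but vehicle 1 (0.0556 to 0.125). With 5 tumours the smallest possible p is 0.0083 before adjustment.

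Mean levels of 254 named genes moved by more than their SD for 82 with the mean of probes, 8 with normexp, 5 of 252 in the deposited table and 0 with the other scalings. Of the 40 list spreads, 11 moved by more than their SD with median centring, 4 in the deposited table, 3 each with quantile normalisation and the mean of probes and 0 with normexp.

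No paired analysis was possible because only the vehicle group is described, so the replicate numbers it shares with the other group pair nothing here.

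Limits: there are 6 tumours, whole tissue without cell fractions and 1 probe per gene. Array brightness differs 4.16-fold, which limits bright and dim genes. Probe sequence keeps levels of different genes from being compared.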
